A study of Mus musculus with 7 samples.

Results

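Methyl groups on lysine 4 of histone H3 (H3K4) are removed by 2 enzyme families, the flavin-dependent amine oxidases KDM1A and KDM1B and the Jumonji-domain KDM5 enzymes. Transcripts of 7 genes of this system were followed in mouse oocytes: Kdm1a, Kdm1b, Kdm5a, Kdm5b, Kdm5c and the cofactor genes Glyr1 and Rcor1. They were taken as a named list, and all 7 were found among the 18951 gene symbols of the deposited table and among the 15071 genes tested. The groups were 4 pools of ovulated oocytes from Nlrp2-null females and 3 pools from wild-type (WT) females, all C57BL/6 and 4 weeks old. Each pool joined about 150 oocytes of 3 to 4 mice of 1 genotype, freed of cumulus cells with hyaluronidase, so pools and not animals were the replicates. NLRP2 is an NLR family protein stored in the egg as a maternal effect product, and the study asked whether its loss changes the oocyte transcriptome, with KDM1B named in its title. The labels do not say which part of Nlrp2 the null allele lacks or whether ovulation was induced.

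The amine oxidases use FAD to strip mono- and dimethyl marks from H3K4, and the KDM5 enzymes use iron and alpha-ketoglutarate and can also act on the trimethyl mark. In growing mouse oocytes KDM1B is needed to set DNA methylation at maternally imprinted genes, and maternal KDM1A is needed for development after fertilization. GLYR1 binds nucleosomes and acts with KDM1B, and RCOR1 (CoREST) ties KDM1A to histone deacetylases. In GRCm38 coordinates (GENCODE vM21), Kdm1b lies at chr13:47043499-47085279 on the plus strand and Kdm1a at chr4:136550540-136602723 on the minus strand. Glyr1 spans chr16:5013909-5049863 on the minus strand and Rcor1 chr12:111039351-111115901 on the plus strand. The KDM5 genes all run on the plus strand, Kdm5a at chr6:120364124-120444574, Kdm5b at chr1:134560171-134635285 and Kdm5c at chrX:152233020-152274535.

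The promoters of both amine oxidase genes are shown because their transcripts are set against each other as a ratio in each pool. Both sequences are RefSeq's on GRCm38.p6, from 250 bases before the transcription start to 50 bases after it, written 5′ to 3′ on the gene's strand. Capitals mark the GC box, read as GGGCGG or as CCGCCC on the opposite strand, a motif known to be bound by SP family factors.
Kdm1b, chr13:47043249-47043548, plus strand: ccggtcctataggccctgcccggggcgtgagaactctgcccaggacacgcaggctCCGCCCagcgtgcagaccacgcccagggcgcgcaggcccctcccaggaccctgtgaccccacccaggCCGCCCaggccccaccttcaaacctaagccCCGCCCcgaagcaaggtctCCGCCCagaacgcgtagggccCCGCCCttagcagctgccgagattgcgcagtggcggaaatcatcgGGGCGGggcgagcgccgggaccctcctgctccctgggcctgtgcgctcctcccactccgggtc
Kdm1a, chr4:136602674-136602973, minus strand: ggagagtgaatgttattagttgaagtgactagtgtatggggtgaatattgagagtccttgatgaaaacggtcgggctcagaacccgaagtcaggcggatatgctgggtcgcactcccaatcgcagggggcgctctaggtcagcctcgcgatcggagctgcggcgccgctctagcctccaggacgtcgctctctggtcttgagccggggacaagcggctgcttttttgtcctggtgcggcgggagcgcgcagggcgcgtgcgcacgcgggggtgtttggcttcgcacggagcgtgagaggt
The Kdm1b window held 6 GC boxes and the Kdm1a window 0. Of 32851 promoter windows of this length 35.7% held at least 1. Among the other genes with an entry, Rcor1 had 6, Glyr1 1, Kdm5b 1 and Kdm5c 0. CG dinucleotides numbered 26 in the Kdm1b and 29 in the Kdm1a window, against a median of 7 over all windows. None of the 6 windows held the TATA box letters TATAAA on either strand, which 13.6% of all windows did. These are letter matches and say nothing of binding.

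The deposited values are normalized counts, that is, reads per gene divided by a size factor per pool. Total reads ran from 71795562 to 79476532 in the Nlrp2-null pools and from 71073973 to 96330083 in the WT pools. Nlrp2 itself had 107, 8.19, 1.96 and 63.8 normalized counts in null pools 1 to 4, against 15527, 20130 and 16792 in WT pools 1 to 3, and fell by 9.70 on the log2 scale (SE 0.851, limma adjusted p = 6.98e-05). Of 20 oocyte marker genes all but Sohlh1 passed the filter, and Gdf9, an oocyte growth factor, was at 203490 or more in every pool. Of 38 markers of cumulus and granulosa cells 33 were tested, 30 of them with a positive log2 fold change (median 0.50, against 0.01 over all tested genes). Over all tested genes 50.7% had a positive log2 fold change. The summed level of the marker list was 96950 to 127400 in null pools and 81819 to 112320 in WT pools. Large parts of that sum came from Bmpr1b, at 26818 to 33117 over all pools, and Serpine2, at 13584 to 20035. Other markers varied more, such as Inhbb (8.23 to 847) and Cyp11a1 (394 to 3659). None of the 37 in the table was at 0 in every pool. Amh and Areg reached at most 4.91 and 2.05 in any pool. Levels differed widely among ovulatory cumulus genes. Ptgs2, Tnfaip6 and Vcan were at least at 1797, 648 and 3228 in every pool. Has2, Ptx3, Ereg and Adamts1 fell to 70.3, 29.4, 5.76 and 28.8 in their lowest pools. Of the steroid synthesis genes, Cyp19a1 and Hsd3b1 were at least at 3431 and 5292, while Star and Hsd17b1 fell to 233 and 51.3. Limma called 0 of the 33 and edgeR 0, while DESeq2 called 2, both higher in null pools, against 0.763% of all genes in that direction. In limma 6 of the 33 had an unadjusted p under 0.05, all higher in null pools, against 5.28% of all genes in that direction. Of 11 oviduct epithelium markers 7 and of 10 blood and immune markers 4 were tested, and limma, edgeR and DESeq2 called 0 of them. Of the 7 oviduct markers 5 had a positive log2 fold change (median 0.35). An unadjusted limma p under 0.05 was reached by 3 of the 7, all higher in null pools, and by 0 of the 4 blood markers. Pax8 (means of 0.768 in null and 26.2 in WT pools) and Rsph1 (66.1 in null and 79.1 in WT pools) were lower in null pools. Cdh1, at 20358 to 36101 over all pools, made up most of the summed level of the oviduct list (20798 to 36593). Null 3 and null 4 stood apart from the other pools in the first principal components. In pooled cells, fewer cells of a type and less RNA per cell cannot be told apart.

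None of the 7 genes passed the test across all genes. The test was limma on log2(normalized count + 1), with p adjusted by Benjamini-Hochberg over the 15071 tested genes and a threshold of 0.05, and it called 0.0664% of all genes. Without adjustment 2 of the 7, Kdm1b and Kdm5a, had a p under 0.05, both higher in null pools, as did 5.28% of all genes in that direction. DESeq2 on reads recovered from the table called 1 of the 7, Kdm1b, where it called 1.33% of all genes (0.763% higher in null pools), and edgeR on the same reads called 0, where it called 0.0464%. Kdm1b was also the only 1 of the 7 whose null pools all lay above its WT pools, which held for 4.74% of all genes.

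Kdm1b had the smallest p of the 7. Its normalized counts were 21249, 23445, 27626 and 23602 in null pools 1 to 4, against 15294, 17938 and 18373 in WT pools 1 to 3. The groups did not overlap: the lowest null pool, null 1, stood above the highest WT pool, WT 3. Means were 23980 ± 2657 in null and 17202 ± 1667 in WT pools (SD, n = 4 and 3), and the limma fold was 1.39 with a 95% interval of 1.20 to 1.61. The log2 fold change of 0.48 (SE 0.101) had a limma adjusted p of 0.1004, an edgeR adjusted p of 0.133 and a DESeq2 adjusted p of 0.00160. By unadjusted limma p Kdm1b ranked 33 of 15071, whereas 28.7% of the tested genes had a larger absolute log2 fold change. Each pool's label holds a number of unstated meaning, in a lower and a higher range. Within pools of the lower label numbers (2 null and 2 WT pools) the log2 difference was 0.43, and within those of the higher numbers (2 null pools and 1 WT pool) it was 0.47. Without null 3 and null 4, an alternative chosen after the data were seen, the log2 fold change was 0.38 (limma adjusted p = 0.576).

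The last 505 bases of Kdm1b (chr13:47084775-47085279, GRCm38) are also exon of Dek, a chromatin protein gene on the opposite strand, and the sources used here do not give whether counting used strand. Dek had 25621, 26507, 24428 and 26701 normalized counts in null pools 1 to 4, against 29917, 30406 and 27897 in WT pools. Dek was thus lower in each null pool than in any WT pool, the opposite order to Kdm1b, and its log2 fold change of -0.19 had an SE of 0.0787 (limma adjusted p = 0.437). If reads of Dek were even along its exons, those in the shared bases would equal 14.0% to 19.1% of the Kdm1b value in null pools. In WT pools they would equal 24.1% to 31.0%. Only if these reads had also been counted for Kdm1b would there be a share to take away. Kdm1b would then stand at 19887 ± 2764 in null and 12539 ± 1772 in WT pools (SD, n = 4 and 3). The ratio of means would be 1.59, against 1.39 as counted. Neither the even spread of Dek reads nor such counting was tested.

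**Figure D1:**
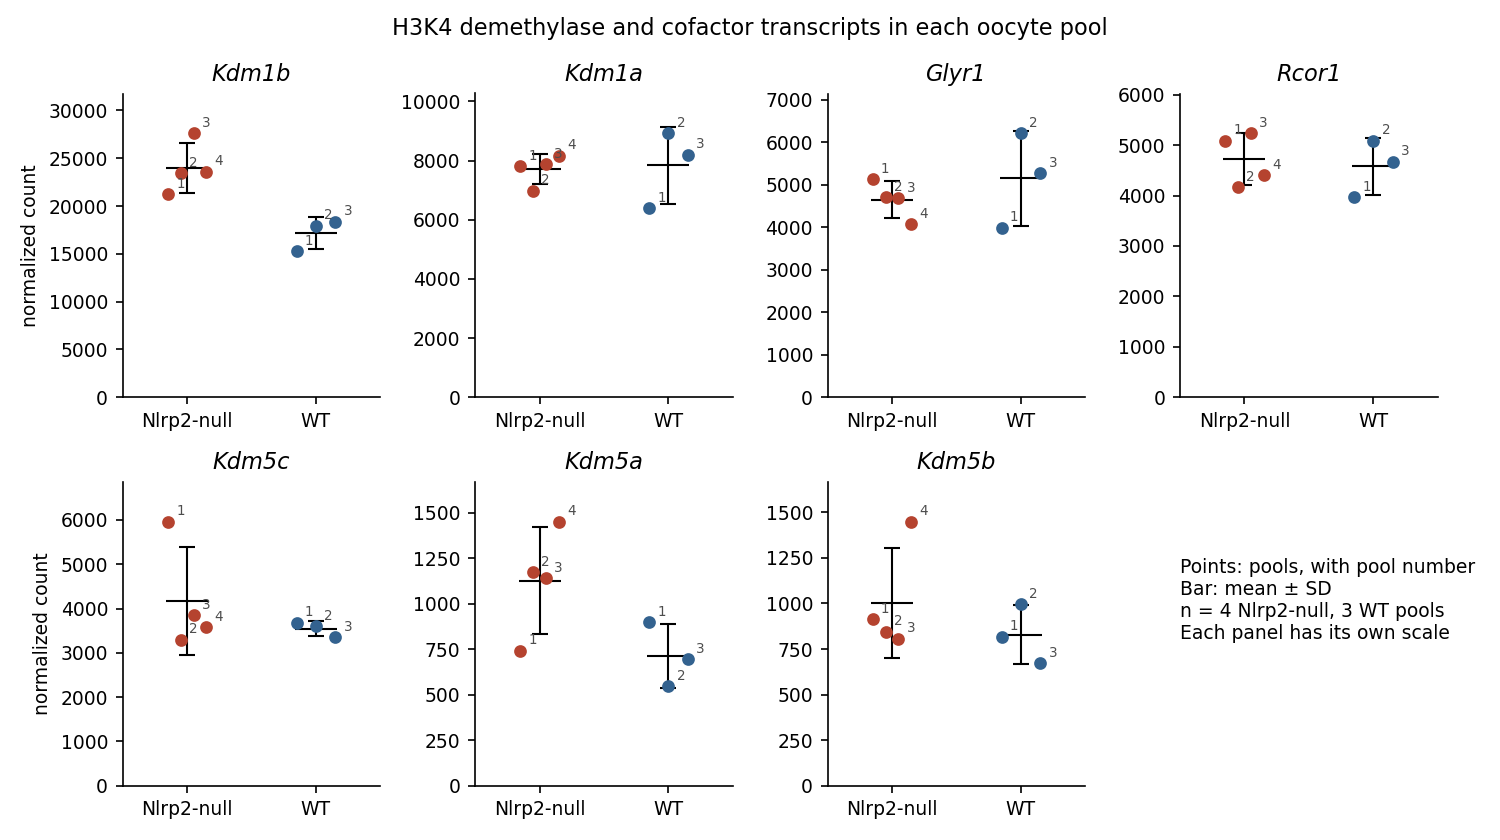
Normalized counts (vertical axis, linear from 0, own scale per panel) of the 7 genes in 4 Nlrp2-null and 3 WT pools; points are pools with their numbers, and bars give the mean ± SD. The null and WT points are apart for Kdm1b, with 21249 as the lowest null and 18373 as the highest WT value, and overlap in the other panels.

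Kdm1a, the amine oxidase gene best known from CoREST complexes, overlapped between the genotypes. It had 7815, 6989, 7884 and 8170 normalized counts in null pools 1 to 4, against 6382, 8930 and 8199 in WT pools. The WT pools spanned more than the null pools and enclosed all of them. The log2 fold change was -0.01, with a 95% interval of -0.26 to 0.24 (limma adjusted p = 0.984), so that folds from 0.833 to 1.18 lay inside the interval. It was -0.03 within each range of label numbers.

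The cofactor genes overlapped between genotypes. Glyr1 had 5127, 4714, 4696 and 4068 normalized counts in null pools 1 to 4, against 3991, 6219 and 5272 in WT pools. Both its lowest and its highest value were WT pools. Its log2 fold change was -0.13, with a 95% interval of -0.43 to 0.17 (limma adjusted p = 0.801). Rcor1 had 5089, 4175, 5240 and 4404 normalized counts in null pools 1 to 4, against 3976, 5089 and 4675 in WT pools. Null 3 lay at the top and WT 1 at the bottom, null 1 and WT 2 were level, and the log2 fold change was 0.05, with a 95% interval of -0.22 to 0.31 (limma adjusted p = 0.929). Within the lower and the higher label numbers the log2 difference was -0.02 and -0.27 for Glyr1 and 0.04 and 0.04 for Rcor1. WT 1 was the lowest pool for Kdm1b, Kdm1a, Glyr1 and Rcor1 alike.

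Of the KDM5 genes, Kdm5a had the largest fold among the 7 and also the widest error. Its normalized counts were 741, 1175, 1139 and 1450 in null pools 1 to 4, against 896, 546 and 695 in WT pools. Null pools 2 to 4 lay above every WT pool, while null 1 lay below WT 1. The fold was 1.57 with a 95% interval of 1.09 to 2.25 (log2 fold change 0.65, SE 0.247, limma adjusted p = 0.386, DESeq2 adjusted p = 0.209). Within the lower and the higher label numbers the log2 difference was 0.42 and 0.89. The mean log2 level of the 33 cumulus and granulosa markers was 8.96, 9.15, 9.65 and 10.44 in null pools 1 to 4, against 9.44, 8.38 and 8.68 in WT pools. The pool highest in this mean, null 4, was also highest in Kdm5a, and the pool lowest in it, WT 2, was lowest in Kdm5a. With that mean as a covariate the log2 fold change of Kdm5a was 0.26 (SE 0.240, limma adjusted p = 0.818) and that of Kdm1b 0.49 (SE 0.115, limma adjusted p = 0.130). The part of other cells' RNA in the Kdm5a values was not tested. Without null 3 and null 4 the log2 fold change of Kdm5a was 0.42 (limma adjusted p = 0.784). Kdm5a shares 251 exon bases (1.77% of its exon length) with Ccdc77 on the opposite strand.

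**Figure D2:**
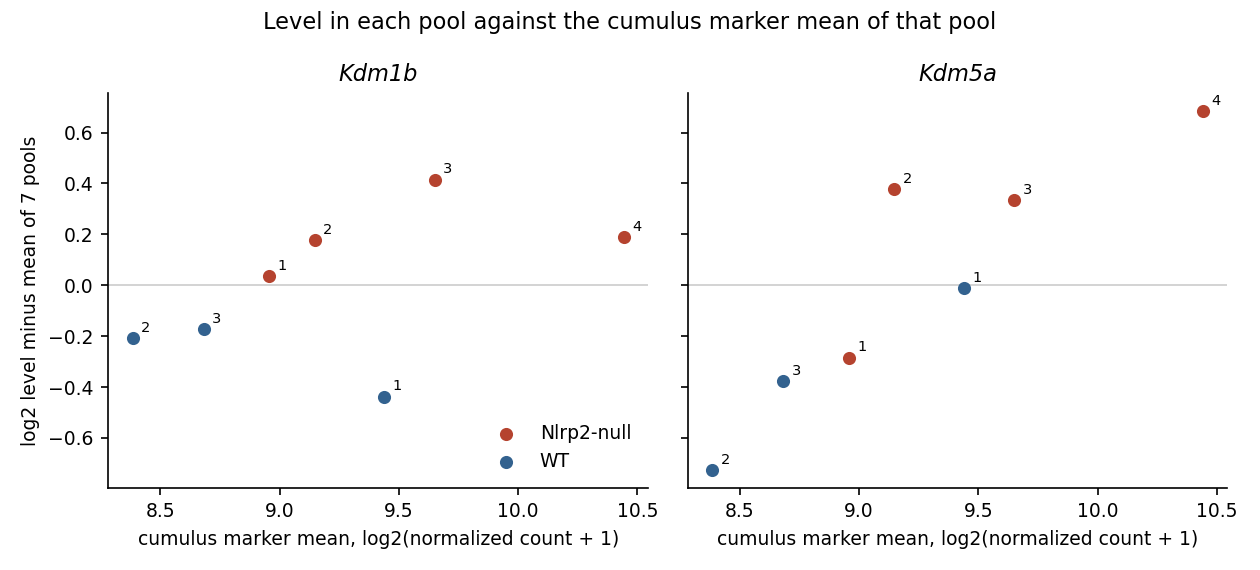
Level of Kdm1b (left) and Kdm5a (right) in each pool as log2(normalized count + 1) minus the mean of the 7 pools, against the mean log2 level of 33 cumulus and granulosa markers in that pool. For Kdm5a the ends of both axes are the same pools, null 4 at 10.44 and WT 2 at 8.38, while Kdm1b is lowest in WT 1, whose marker mean is 9.44.

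Kdm5b, which encodes a demethylase of the H3K4 trimethyl mark active in early mouse embryos, had 913, 846, 806 and 1449 normalized counts in null pools 1 to 4, against 817, 995 and 673 in WT pools. Null 4 stood above all other pools, and the remaining null pools lay inside the WT range. Its log2 fold change of 0.25 had an SE of 0.236 (limma adjusted p = 0.760), and was 0.061 without null 4 and 0.10 without both null 3 and null 4. Kdm5c, an X-linked gene that escapes X inactivation, had 5962, 3298, 3857 and 3578 normalized counts in null pools 1 to 4, against 3682, 3597 and 3358 in WT pools. Here null 1 was the high pool and the others were within or near the narrow WT range. Its log2 fold change of 0.20 had an SE of 0.168 (limma adjusted p = 0.732), and was 0.011 without null 1 and 0.32 without both null 3 and null 4. Within the lower and the higher label numbers the log2 difference was -0.04 and 0.68 for Kdm5b, and 0.29 and 0.15 for Kdm5c. With that marker mean in the model the log2 fold change was 0.052 for Kdm5b and 0.32 for Kdm5c, and the part of other cells' RNA in these values was not tested. The high pools of the KDM5 genes were thus not the same: null 1 for Kdm5c and null 4 for Kdm5a and Kdm5b.

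**Figure D3:**
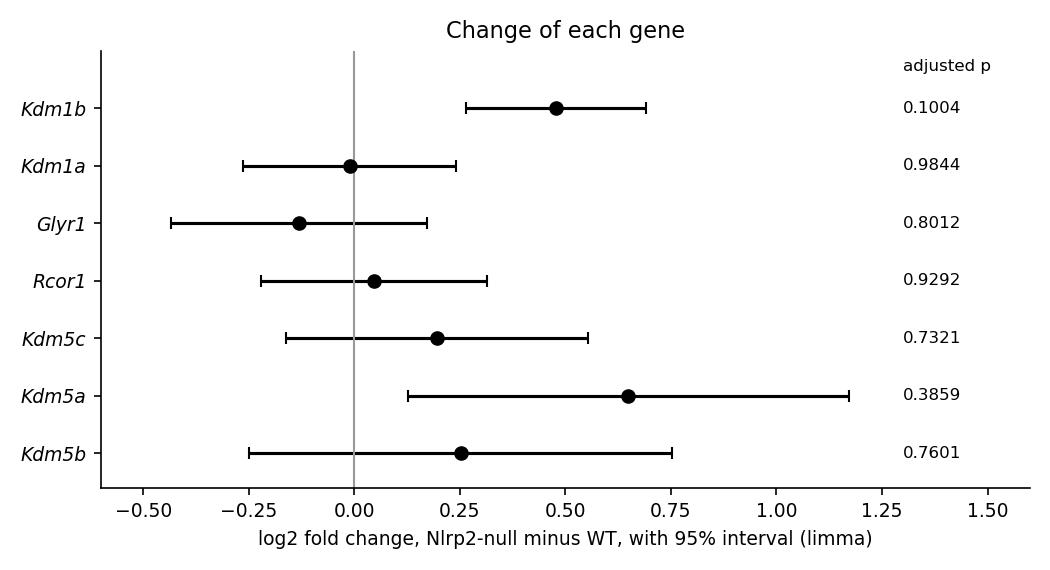
Log2 fold change of each gene, Nlrp2-null minus WT, from limma (points) with 95% intervals (bars), and the p adjusted over all tested genes at the right. The intervals of Kdm1b (0.26 to 0.69) and Kdm5a (0.13 to 1.17) lie above 0 before adjustment, and none of the adjusted p values is under 0.05.

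Levels of different genes were compared per kilobase of merged annotated exons. Kdm1b was the most abundant of the 7, at 4364 ± 484 normalized counts per kb in null and 3130 ± 303 in WT pools (SD, n = 4 and 3). Of 14508 tested genes with a known length, 95.02% stood lower in null pools and 92.7% in WT pools. Kdm1a followed at 1490 ± 98.0 per kb in null and 1513 ± 253 in WT pools. Rcor1 was at 832 ± 91.0 and Kdm5c at 587 ± 171 per kb in null pools, against 806 ± 99.0 for Rcor1 and 499 ± 23.6 for Kdm5c in WT pools. Glyr1 was at 553 ± 52.0 per kb in null and 614 ± 133 in WT pools, and its pools overlapped those of Kdm5c in both groups. Kdm5a was at 79.6 ± 20.6 per kb in null and 50.3 ± 12.4 in WT pools, and Kdm5b at 60.6 ± 18.1 in null and 50.1 ± 9.73 in WT pools. The ranges of Kdm5a and Kdm5b overlapped in both groups, so their order is not set. Kdm1b, Kdm1a and the pair of Kdm5a and Kdm5b were each apart from their neighbours in both groups, while Rcor1 overlapped Kdm5c among null pools and Glyr1 among WT pools. Per kilobase of the longest annotated transcript Kdm1b and Kdm1a stayed first and second, while Glyr1 (1166 in null and 1293 in WT pools) came above Rcor1 (832 in null and 806 in WT pools).

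**Figure D4:**
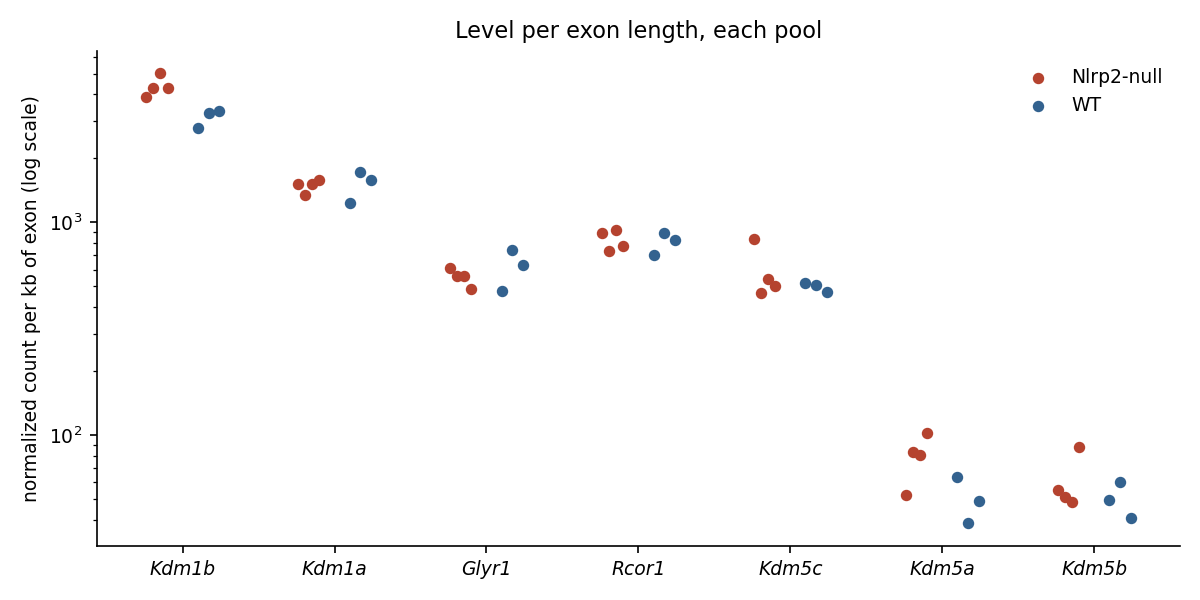
Normalized counts per kb of merged exon (log scale) of the 7 genes; each point is a pool, Nlrp2-null left of WT. Kdm1b is on top in both groups (means 4364 in null and 3130 in WT pools), and Kdm5a and Kdm5b lie together at the bottom.

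As a share of the summed per-kilobase level of the 7 genes, Kdm1b made up 49.4%, 56.8%, 57.8% and 54.9% in null pools 1 to 4, against 47.8%, 45.2% and 48.2% in WT pools. All null shares lay above all WT shares. The Kdm1a share was 17.5% to 20.2% in null and 21.2% to 23.9% in WT pools, again without overlap. The shares of Glyr1 (6.19% to 7.79% in null, 8.16% to 10.2% in WT pools) and Rcor1 (9.78% to 11.4% in null, 11.9% to 12.4% in WT pools) did not overlap either. Those of the KDM5 genes overlapped. Because shares add up to the whole, a higher share of 1 gene lowers the others.

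Ratios within a pool do not depend on how pools were scaled, and 3 were set up: the amine oxidases against each other, and each against its known cofactor gene. The Kdm1b to Kdm1a ratio of normalized counts was 2.72, 3.35, 3.50 and 2.89 in null pools 1 to 4, against 2.40, 2.01 and 2.24 in WT pools. Each null ratio exceeded every WT ratio, and the log2 ratio was higher by 0.49 in null pools. Over all 35 ways to split the pools, the two-sided exact permutation p was 0.0286, the smallest this design can give, and 0.0857 adjusted over the 3 ratios, which did not pass. The Kdm1b to Glyr1 ratio was 4.14, 4.97, 5.88 and 5.80 in null pools, against 3.83, 2.88 and 3.49 in WT pools. These also did not overlap, and the difference of 0.61 in log2 ratio had p = 0.0571 in the exact permutation test (0.0857 adjusted). The Kdm1a to Rcor1 ratio was 1.54, 1.67, 1.505 and 1.86 in null pools, against 1.61, 1.75 and 1.75 in WT pools. That ratio overlapped between genotypes (log2 difference -0.06, exact permutation p = 0.543) and stayed within 1.505 to 1.86 over all pools.

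**Figure D5:**
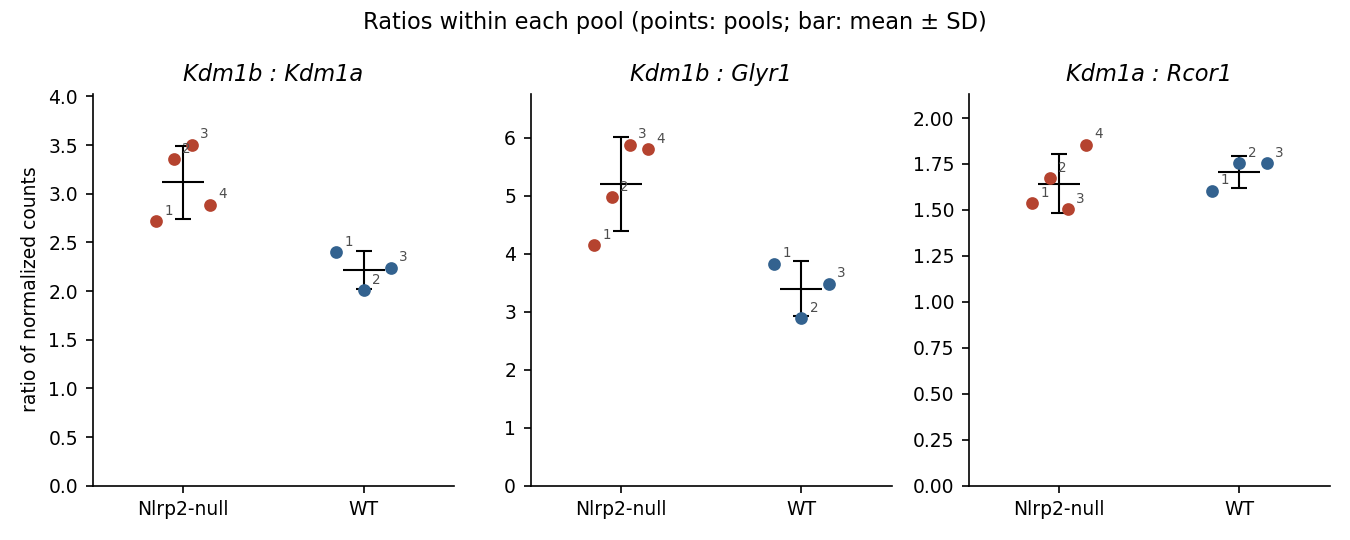
Ratios of normalized counts within each pool (vertical axis, from 0) for Kdm1b to Kdm1a, Kdm1b to Glyr1 and Kdm1a to Rcor1; points are pools with their numbers, bars the mean ± SD of 4 Nlrp2-null and 3 WT pools. Null and WT points are apart in the first 2 panels and mixed in the third, where all lie between 1.505 and 1.86.

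Among the 7 genes the most alike across pools were Kdm1a and Rcor1. Their log2 levels, each centred on its own mean, differed by a root mean square of 0.102 over the 7 pools. This measure is small for any 2 genes that vary little. Rcor1 and Kdm1a had the smallest factors between highest and lowest pool of the 7 genes (1.32 and 1.40). How many pairs of other genes are as alike was not tested. Kdm1a and Glyr1 followed at 0.149, and Kdm5a and Glyr1 were the least alike at 0.636. Kdm1b and Glyr1 differed by 0.356. Over 12424 other genes with a mean of at least 50, those nearest to Kdm1b by the same measure were Gm16386, a predicted gene (0.0720), Lsm11, a component of the U7 particle that processes histone pre-mRNA (0.0803), Med12l, a Mediator subunit paralog (0.0851), Shc1, a signalling adaptor gene (0.0904), and Ap1m2, a subunit of a clathrin adaptor (0.0939). Because the 7 pools include both genotypes, choosing genes by this measure itself favours those higher in null pools. Lsm11 had 2579, 2737, 2924 and 2698 normalized counts in null pools 1 to 4, against 1713, 2024 and 1863 in WT pools. None of these genes passed over all genes, with limma adjusted p values from 0.162 for Lsm11 to 0.520 for Gm16386. Of the other members of the system Rcor1 came nearest to Kdm1b, at place 1438.

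Other genes of H3K4 methylation, and 12 genes that set or keep maternal imprints, were read from 6 lists with 79 genes, 78 of them tested. Limma called 0 of them (6 reached an unadjusted p under 0.05, against 10.2% of all genes), and edgeR and DESeq2 also called 0. Of those 6, 2 were higher in null pools and 4 lower, against 5.28% and 4.93% of all genes. In 3 genes each null pool was below every WT pool (Gfi1, Sin3b and Trim28), which is the case for 5.16% of all genes. Trim28 was named after its values were seen. The counts of genes above 0 given below for each list stand beside 50.7% of all tested genes, whose median log2 fold change was 0.0056.

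Of 11 H3K4 methyltransferase genes 8 had a log2 fold change above 0, and the median was 0.11. Kmt2c, a writer of enhancer monomethylation, had the highest normalized counts of the list, which are not per length, at 104150 ± 10875 in null and 94994 ± 10091 in WT pools (SD, n = 4 and 3), and its paralog Kmt2d was at 53321 ± 4022 in null and 47993 ± 1366 in WT pools (limma adjusted p = 0.670 for Kmt2c and 0.5545 for Kmt2d). Smyd2 (314 ± 66.9 in null, 186 ± 41.4 in WT pools) and the meiotic recombination gene Prdm9 (109 ± 74.6 in null, 207 ± 6.85 in WT pools) were low in both groups (limma adjusted p = 0.498 for Smyd2 and 0.4995 for Prdm9). Of 15 subunits of the COMPASS methyltransferase complexes 8 were above 0, with a median log2 fold change of 0.0033. Psip1, a chromatin-binding partner of menin, was at 59309 ± 4132 in null and 69479 ± 6068 in WT pools (-0.23 in log2 fold change, limma adjusted p = 0.377). Kdm6a, itself a demethylase of another histone H3 lysine, was at 66282 ± 2855 in null and 58948 ± 3908 in WT pools (0.17, limma adjusted p = 0.466). Wdr82, a SETD1 complex subunit, was at 11382 ± 968 in null and 9977 ± 464.5 in WT pools (limma adjusted p = 0.540).

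Among 17 further partners of KDM1A, 7 had a log2 fold change above 0, and the median was -0.11. The deacetylase gene Hdac2 was at 5631 ± 681 in null and 6329 ± 648 in WT pools, and Phf21a, a reader of unmethylated H3K4 in the CoREST complex, at 1744 ± 163 in null and 2000.3 ± 97.1 in WT pools (limma adjusted p = 0.674 for Hdac2 and 0.679 for Phf21a). Gse1, a CoREST-associated gene, had the highest normalized counts of its list, not per length, at 13087 ± 2332 in null and 12729 ± 1233 in WT pools (limma adjusted p = 0.963). The repressor gene Gfi1 was near the detection floor, with 0.00, 10.2, 4.91 and 0.00 normalized counts in null pools 1 to 4, against 28.4, 77.0 and 14.0 in WT pools (limma adjusted p = 0.427). Of 8 tested partners of KDM5 enzymes 2 were above 0 in log2 fold change, and the median was -0.046. Sin3b, which encodes a corepressor, was at 2441 ± 302 in null and 3197 ± 98.3 in WT pools, a log2 fold change of -0.40 with an SE of 0.135 (limma adjusted p = 0.332). Rbpj, the DNA-binding factor of Notch signalling, was at 8712 ± 476 in null and 7175 ± 446 in WT pools, a log2 fold change of 0.28 with an SE of 0.0978 (limma adjusted p = 0.355). Rbbp4, which encodes a histone chaperone, was at 2744 ± 210 in null and 3536 ± 560 in WT pools, a log2 fold change of -0.36 with an SE of 0.139 (limma adjusted p = 0.402). Sin3a, a paralog of Sin3b with the highest normalized counts of the list, not per length, was at 95378 ± 6655 in null and 96914 ± 6156 in WT pools (limma adjusted p = 0.943).

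Of 15 genes for readers of H3K4 methylation 9 were above 0, with a median log2 fold change of 0.0086. Spin1, a Tudor-domain reader abundant in oocytes, was at 853290 ± 93250 in null and 771310 ± 75628 in WT pools (limma adjusted p = 0.633), while Ing2 (545 ± 124 in null, 717 ± 166 in WT pools) and Phf23 (3700 ± 222 in null, 3395 ± 354 in WT pools) had limma adjusted p values of 0.647 for Ing2 and 0.769 for Phf23. Of 12 genes that set or keep maternal imprints, the process for which KDM1B is known in the oocyte, 7 were above 0, with a median log2 fold change of 0.059. Dnmt1, the maintenance DNA methyltransferase gene, was at 196380 ± 6480 in null and 179420 ± 19837 in WT pools, and Zfp57, which protects imprints in the embryo, at 189640 ± 13362 in null and 173280 ± 6056 in WT pools (limma adjusted p = 0.597 for Dnmt1 and 0.598 for Zfp57). Ehmt2, which encodes the methyltransferase G9a, was low, at 196 ± 57.6 in null and 118 ± 61.3 in WT pools (limma adjusted p = 0.602).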

How the data were processed

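RNA of 7 oocyte pools was measured. Per the labels' protocols, libraries were made with a NuGEN kit from amplified cDNA primed with oligo d(T) and random primers, and run on an Illumina HiSeq. The deposited gene table holds a signal: each gene's read count, scaled by the authors with the size factor that DESeq2 sets for a pool, per the file headers. The submitters' processing notes name STAR 2.5.0a and TopHat2 2.0.9, featureCounts 1.5.0-p1 and HTSeq, DESeq2 1.22.2 and DESeq, and HOMER, with builds mm10 and GRCm38. The sources used here do not give which of these made the table, nor its annotation or strand setting. Each value was a whole multiple of its pool's step within 0.01, so whole reads were recovered for 100% of values. A second table of transcripts without gene names was not used.

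Groups came from the labels, and p-values measure the spread between these pools. Pools of 1 group always differed beyond sampling noise: chi-square divided by its degrees of freedom was 38.2 or more. Under R 4.3.3, limma 3.58.1 (trended variance) was the main test. It ran on log2(normalized count + 1), the scale of all fold changes given, for the 15071 genes with a mean of at least 10. edgeR 4.0.16 and DESeq2 1.42.0 ran on recovered reads; 2080 adjusted p values that DESeq2 gave as NA stayed NA. All were tested on simulated data. The median SE of a log2 fold change was 0.277, and the parts of depth and of spread between pools in it were not tested. Reads are not independent molecules after amplification. Lengths and positions are from GENCODE vM21 (GRCm38).

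The members and lists were chosen with earlier results of these data known. The named genes are Nlrp2, the 7 members, Dek and the 5 genes nearest to Kdm1b. Of each H3K4 or imprint list, the 3 genes with the smallest p and the 1 with the highest mean are also named. Of the 79 list genes Emsy was not analysed here, and 1 result on the lists is not reported here. Alternatives changed the pseudocount (0.5, 10), filter, scaling, variance model, covariates, tool or pools. The replicate numbers were not taken to pair pools.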

Additional observations from a re-analysis of the deposited data

Results flagged for a closer look

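Among 10 sets of 4 Nlrp2-null values (7 genes and 3 ratios), 1 held a pool far from the other 3: Kdm5b at 1449 normalized counts in null 4, where the gap to the next pool was 0.835 of the whole range, above Dixon's critical value. Chance alone passes that limit in about 1 of 20 such sets. The same pool had the highest Kdm5a value and the highest cumulus marker mean, whose part in the Kdm5b value was not tested.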

How the results depend on the processing

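Kdm1b kept its direction in all 22 alternative fits, with log2 fold changes from 0.38 to 0.53 and adjusted p values from 0.00160 to 0.576. It passed the threshold in 2 of them, DESeq2 (log2 fold change 0.48, adjusted p = 0.00160) and limma with pool quality weights (0.42, adjusted p = 0.0456), so the number of called members was 1 there and 0 in the other 20. Leaving out 1 pool gave 0.40 to 0.53 (adjusted p 0.0760 to 0.380). Kdm5a, Kdm5b and Kdm5c also kept their direction in all 22. The 3 genes near 0 did not: Kdm1a was at 0.030 with quantile normalization and 0.045 with the cumulus marker covariate, Glyr1 at 0.097 with that covariate, and Rcor1 at -0.013 with equal medians and -0.039 with pool weights. Leaving out 1 pool gave -0.15 to 0.090 for Kdm1a, -0.30 to 0.015 for Glyr1 and -0.052 to 0.13 for Rcor1. The cause was not tested.

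The count of called genes, 10 in limma, was 6 with equal medians, 0 without a variance trend (1252 with an unadjusted p under 0.05), 68 with pool weights, 200 with DESeq2, 7 with edgeR, 1 with the replicate block, 0 without both null 3 and null 4 (1080 with an unadjusted p under 0.05) and 2 (without null 3) to 16 (without null 1) when 1 pool was left out.

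The Kdm1b to Kdm1a log2 ratio stayed positive: 0.52 in the replicate block (exact p = 0.25, the smallest 3 pairs allow), 0.46 and 0.51 within the lower and higher label numbers (exact p = 0.333 each, the smallest possible there), and 0.42 to 0.55 without 1 pool (exact p 0.0667 to 0.133). Pools that share a number deviated from their group means with correlations across genes of -0.16, 0.02 and -0.01. For pools of unlike number the correlations ran from -0.10 to 0.17. So few values, from means of 3 or 4 pools, cannot decide whether the numbers pair pools. In the replicate block Kdm1b had a log2 fold change of 0.48 (limma adjusted p = 0.466). Levels per kilobase depend on the gene model: Glyr1 was at 553 in null and 614 in WT pools per kb of merged exon, and at 1166 in null and 1293.5 in WT pools per kb of its longest transcript. Depth limits the reading of genes near 0 such as Gfi1, and how far it limits that of the other genes was not tested.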

Other observations

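The limma standard error measures spread within genotypes, drawn toward the trend of all tested genes (10.89 prior against 5 residual degrees of freedom). In all 7 genes it was larger than in the median gene of like level. For Rcor1 the excess was slight (0.126 against 0.123). For each gene, the limma standard error was set beside those of the 500 tested genes nearest to it in mean log2 level. The share of those genes with a smaller error was 57.6% for Rcor1, 70.4% for Kdm5b, 75.0% for Kdm1a, 76.8% for Kdm1b, 79.6% for Kdm5a, 86.0% for Glyr1 and 93.8% for Kdm5c. The highest pool exceeded the lowest by a factor of 1.32 for Rcor1, 1.40 for Kdm1a, 1.56 for Glyr1, 1.81 for Kdm1b, 1.81 for Kdm5c, 2.15 for Kdm5b and 2.66 for Kdm5a. These factors span both genotypes, so they include any difference between genotypes, which the standard error leaves out. The highest pool was a null pool in 5 of the 7 genes and WT 2 for Kdm1a and Glyr1.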
